A study of Rattus norvegicus with 6 samples.

Results

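Krt7, Krt8, Krt18, Krt19, Vim and Epcam were followed across 6 arrays of RK3E cells. These 6 genes code for 4 keratins of simple epithelia, vimentin and an epithelial adhesion protein. Members were all probe sets whose annotation gave exactly 1 gene symbol and whose symbol was among these 6. The rule found 6 probe sets, 1 for each gene, among 14217 genes with a probe set of 1 symbol. RK3E is a rat kidney epithelial line immortalised with adenovirus E1A. Its cells were transfected with a GLI1 expression construct, and single foci of transformed cells were picked and grown as lines in medium with serum. The GLI1-transformed group held 4 arrays: 2 of clone II, 1 of clone I and 1 whose clone the labels do not name. By these names both clone II arrays come from 1 focus and clone I from another. The parental group held 2 arrays of RK3E cells in the same medium, for which the labels name no empty vector or mock transfection. In what follows, the other GLI1 arrays are the array with no clone named and clone I. The study set the expression profile of transformed cells against that of control cells, and these genes, which mark epithelial and mesenchymal states, are compared here on the same arrays and between the clones.

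Keratins are the intermediate filament proteins of epithelial cells, and a filament is built from pairs of a type II and a type I keratin. Krt8 and Krt7 are the type II keratins, and Krt18 and Krt19 the type I keratins, of single-layered epithelia such as kidney tubules. Vim, vimentin, is a type III filament protein that builds filaments by itself and is typical of mesenchymal cells and of most cells grown in culture. Epcam is a membrane glycoprotein of simple epithelia through which neighbouring cells adhere. GLI1 is a zinc finger protein that carries the Hedgehog signal to its target genes.

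Vim was lower on all 4 GLI1 arrays, by 3.74-fold on average against parental cells. That mean takes 2 arrays from clone II, and the call was lost when either parental array was left out. Krt8 and Epcam were 4.21-fold and 4.43-fold higher on the other GLI1 arrays than in parental cells. In clone II Krt8 lay below and Epcam around the parental level. Krt8 was chosen with this division known, and its difference in clone II was not called. The Epcam call on the other GLI1 arrays was lost without parental replicate 1. Krt7, Krt18 and Krt19 had low signals throughout, and no call was made for them.

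Each value is a MAS5 signal, the background-adjusted brightness of a probe set after scaling of its array, and 1 probe set's level cannot be set against another's. The trimmed mean signal was 2501 on each array and the median signal ran from 568 to 696. The Gli1 probe set read 3356 to 9092 on the GLI1 arrays against 36.0 and 90.8 in parental cells. RNA integrity differed among the arrays: the 3'/5' ratio of the GAPDH control probe sets was 7.52 on clone II replicate 1 and 3.66 on parental replicate 1, and 1.39 to 2.09 on the other 4 arrays. Differences were tested with limma on log2 signals, and a gene rose or fell where its p, adjusted after Benjamini-Hochberg over all tested probe sets, was under 0.05. A probe set was tested where its mean log2 signal exceeded 8.33, which corresponds to a signal of 322. Detection calls were not used here, so a low signal is not called absent.

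RefSeq promoter sequences on the rat GRCr8 assembly were at hand for 4 members, Krt8, Krt18, Vim and Epcam. The 250 bases before the start of the 3 tested members are shown because these genes carry the differences described here, and they let their promoters be compared. Capitals mark 3 motifs searched on both strands. TATAAA has the letters of a core promoter element that positions transcription initiation, and whether the marked copies do so was not tested. GGGCGG is the element bound by the factor Sp1. CACCTG is the E-box bound by the Snail and Zeb repressors. Krt8 lies at chr7:135010340-135010589 on the minus strand, Vim at chr17:81577011-81577260 on the plus strand and Epcam at chr6:12649679-12649928 on the minus strand.
Krt8: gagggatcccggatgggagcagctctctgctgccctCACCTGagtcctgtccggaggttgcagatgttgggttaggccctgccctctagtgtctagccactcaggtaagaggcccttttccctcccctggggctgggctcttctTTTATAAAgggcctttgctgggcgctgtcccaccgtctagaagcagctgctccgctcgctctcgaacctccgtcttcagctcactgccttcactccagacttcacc
Vim: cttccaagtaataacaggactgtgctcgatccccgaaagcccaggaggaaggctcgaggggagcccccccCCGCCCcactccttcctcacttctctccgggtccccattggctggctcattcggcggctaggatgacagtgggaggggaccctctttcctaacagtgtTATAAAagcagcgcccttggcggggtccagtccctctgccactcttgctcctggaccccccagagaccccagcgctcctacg
Epcam: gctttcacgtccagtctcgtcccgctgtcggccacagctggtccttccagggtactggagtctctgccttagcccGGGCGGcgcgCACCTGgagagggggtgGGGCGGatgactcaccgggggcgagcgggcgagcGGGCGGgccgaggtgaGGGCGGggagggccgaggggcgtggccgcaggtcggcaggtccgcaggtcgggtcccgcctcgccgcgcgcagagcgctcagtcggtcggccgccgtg

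The 3 windows differed in their motifs. In Krt8 a CACCTG began 214 bases before the start, and TATAAA began at 104 bases, overlapping its reverse form TTTATA at 106 bases. Vim held TATAAA at 82 bases and the reverse of GGGCGG at 180 bases. Epcam held no TATAAA, but GGGCGG at 175, 148, 114 and 98 bases and CACCTG at 165 bases. The Krt18 window at chr7:135035918-135036167, on the plus strand of the chromosome that also holds Krt8, had GGGCGG at 84 bases. Of 33469 promoters of the same length, 12.9% held TATAAA, 30.5% held GGGCGG and 15.9% held CACCTG on either strand. The GLI consensus GACCACCCA was found in 0.338% of those promoters and in none of these 4 windows, which says only that these letters are not there. G and C made up 75.6% of the Epcam window, 62.4% of Vim, 62% of Krt18 and 60.0% of Krt8, where the median promoter had 51.2%.

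Krt8, the type II keratin, divided the transformed lines. Its signal was 539 and 599 on the clone II arrays, 4284 on the array with no clone named and 6092 on clone I, against 1085 and 1355 on the parental arrays. The other GLI1 arrays lay above both parental arrays and the clone II arrays lay below both. The mean log2 signal was 9.15 ± 0.11 in clone II and 12.32 ± 0.36 on the other GLI1 arrays, against 10.24 ± 0.23 in parental cells (SD, n = 2 each). Krt8 was singled out with this division known, so the arrangement is a description. Of 10240 tested genes, 125 (1.22%) had the other GLI1 arrays above and the clone II arrays below both parental arrays.

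Against parental cells, Krt8 rose by 2.07 ± 0.29 (log2, SE) on the other GLI1 arrays, a 4.21-fold change with an adjusted p of 0.00359 by limma. In clone II it was 1.09 lower on the log2 scale (a difference of -1.09 with a 95% interval of -1.77 to -0.42), and its adjusted p of 0.0538 missed the threshold. Neither p is independent support, since Krt8 was chosen for its division between clones. Clone II minus the other GLI1 arrays was -3.17 on the log2 scale, which makes clone II 8.99-fold lower and is given with no test. Over all 4 GLI1 arrays together the difference from parental cells was 0.49 (95% interval -1.65 to 2.63, adjusted p = 0.783 by limma), a mean of lines that lay on either side of the parental level. It was -0.12 without clone I, the array of highest Krt8. The clone II difference from parental cells ran from -1.25 to -0.93 with 1 array left out. That difference passed the threshold in 3 alternatives and missed it in 11.

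**Figure D1:**
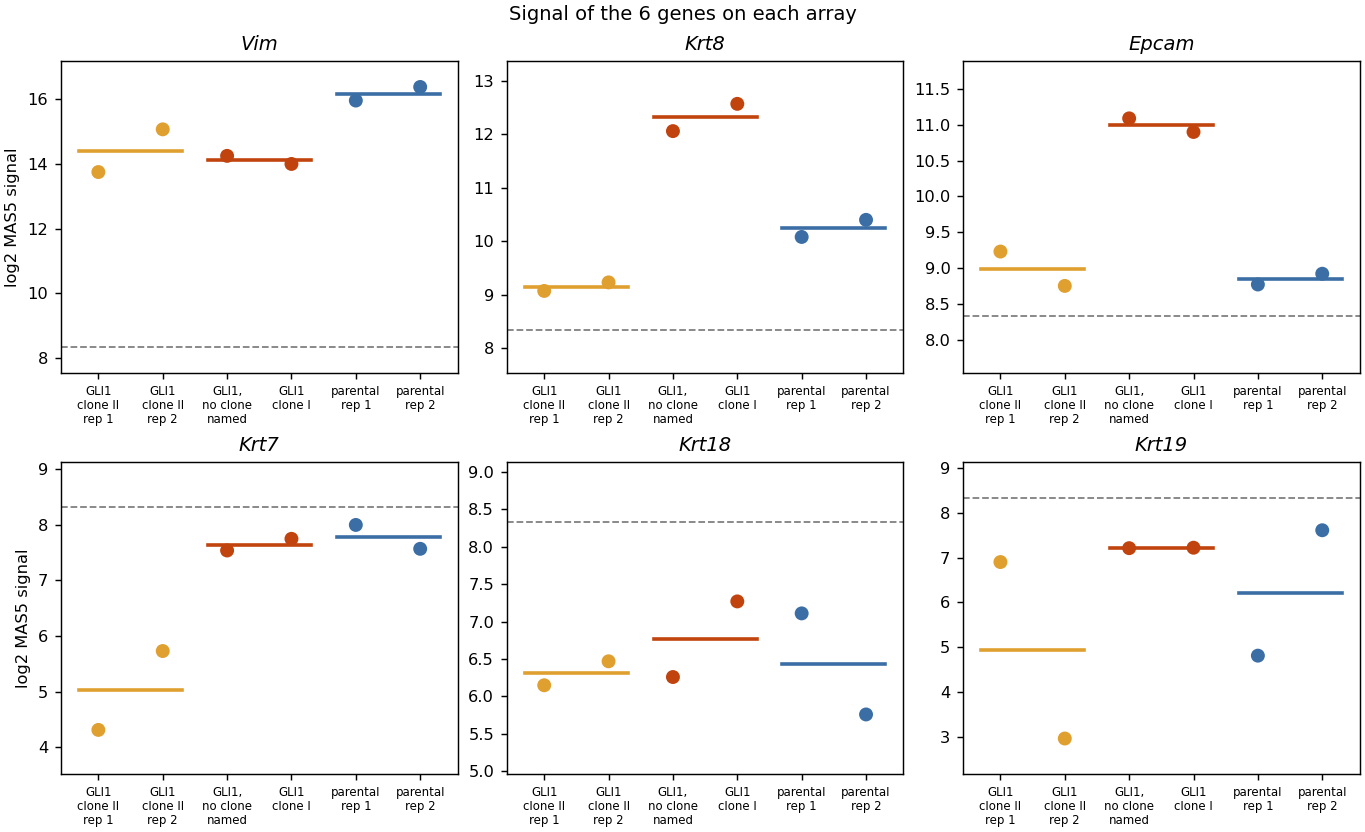
Log2 MAS5 signal (vertical axis) of each gene on each of the 6 arrays, with clone II in yellow, the other GLI1 arrays in red and parental RK3E in blue. Horizontal lines are group means of 2 arrays and the dashed line is the limit of 8.33 for testing: Vim is below its parental level on all 4 GLI1 arrays, Krt8 and Epcam are high on the 2 red arrays, and Krt7, Krt18 and Krt19 lie under the dashed line.

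Epcam, the adhesion glycoprotein, was also high on the other GLI1 arrays, but clone II stayed near the parental level. Epcam read 601 and 431 on the clone II arrays, 2177 on the array with no clone named and 1912 on clone I, against 437 and 485 on the parental arrays. The clone II arrays lay on either side of the parental pair, and the other GLI1 arrays lay above all 4 of these. That arrangement, with the other GLI1 arrays above both parental arrays and clone II overlapping them, held for 864 of 10240 tested genes (8.44%).

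The rise of Epcam on the other GLI1 arrays was 2.15 ± 0.34 on the log2 scale, 4.43-fold, with an adjusted p of 0.00584 by limma. In clone II the difference was 0.14 (95% interval -0.64 to 0.93, adjusted p = 0.839), and its sign turned without clone II replicate 1 (-0.10). Clone II was 4.01-fold lower than the other GLI1 arrays (log2 difference -2.0 ± 0.34), with an adjusted p of 0.106 by limma, which missed the threshold. Over all 4 GLI1 arrays the difference from parental cells was 1.15 (95% interval -0.31 to 2.60, adjusted p = 0.281). Without parental replicate 1 the rise on the other GLI1 arrays was 2.07 with an adjusted p of 0.0544.

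Vim differed from both: it was below the parental level on every GLI1 array. Its signal was 13736 and 34334 on the clone II arrays, 19456 on the array with no clone named and 16397 on clone I, against 63954 and 85059 on the parental arrays. The highest GLI1 array, clone II replicate 2, remained below both parental arrays, and the clone II arrays spanned the other GLI1 arrays. The mean log2 signal was 14.27 ± 0.57 in GLI1-transformed cells (SD, n = 4) and 16.17 ± 0.29 in parental cells (SD, n = 2). Fibroblast markers were low on the same arrays, with a signal summed over 8 markers of 5120 to 7020 on the GLI1 arrays against 167000 and 187000 on the parental arrays, and their part in the fall of Vim was not tested. That sum was carried by Col1a1, Col1a2, Col3a1 and Ogn, while Pdgfra differed by -0.06 (log2, adjusted p = 0.95 by limma), and Dcn, Lum and Pdgfrb were under the signal limit.

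Vim fell by 1.90 on the log2 scale in GLI1-transformed cells (SE 0.33, 3.74-fold, adjusted p = 0.00701 by limma). With the 2 clone II arrays, which come from 1 focus, averaged into 1, the difference was -1.95. The fall was 3.40-fold in clone II (adjusted p = 0.0253) and 4.13-fold on the other GLI1 arrays (adjusted p = 0.0121), and these comparisons share the parental arrays. With 1 parental array left out, the clone II difference was -1.97 and -1.56 and that of the other GLI1 arrays -2.25 and -1.84, and these no longer passed (adjusted p = 0.0587 to 0.153). Nor did clone II without its replicate 1 (-1.10, adjusted p = 0.0776) or the other GLI1 arrays without clone I (-1.92, adjusted p = 0.065). Each such fit has an arm of 1 array, which is assumed to vary like the other groups. Clone II minus the other GLI1 arrays was 0.28 (95% interval -0.60 to 1.16, adjusted p = 0.884), so the lines were not separated by this test, which does not show that they were alike. With 2 parental arrays, leaving out either ended the call of the 4 GLI1 arrays: with parental replicate 1 left out the difference was -2.11 (adjusted p = 0.052), and with parental replicate 2 left out it was -1.70 (adjusted p = 0.0798). Without both arrays of high GAPDH ratio, clone II replicate 1 and parental replicate 1, it was -1.94 with an adjusted p of 0.0742, and over all alternatives the adjusted p ran from 0.00111 to 0.0798.

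The members' calls are given here beside those of all tested genes. In GLI1-transformed against parental cells 0 of the 3 tested members rose and 1 fell, where 7.8% of 10240 genes rose and 7.75% fell. By limma at an unadjusted p under 0.05 the counts were the same, 0 and 1. In clone II 0 rose and 1 fell, with backgrounds of 5.32% and 6.41%, and 0 and 2 at an unadjusted p under 0.05. On the other GLI1 arrays 2 rose and 1 fell, with backgrounds of 7.34% and 7.46%, and nothing is read from that count, since Krt8, 1 of the rises, was chosen with its clone division known. In clone II against the other GLI1 arrays 0 of the 2 members tested there rose and 0 fell by limma, where 0.0293% of all genes rose, 0.146% fell and 0.176% were called either way. Of these 2, 1 was lower at an unadjusted p under 0.05. No share of all genes at an unadjusted p is given, so nothing is read from such counts, here or below.

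**Figure D2:**
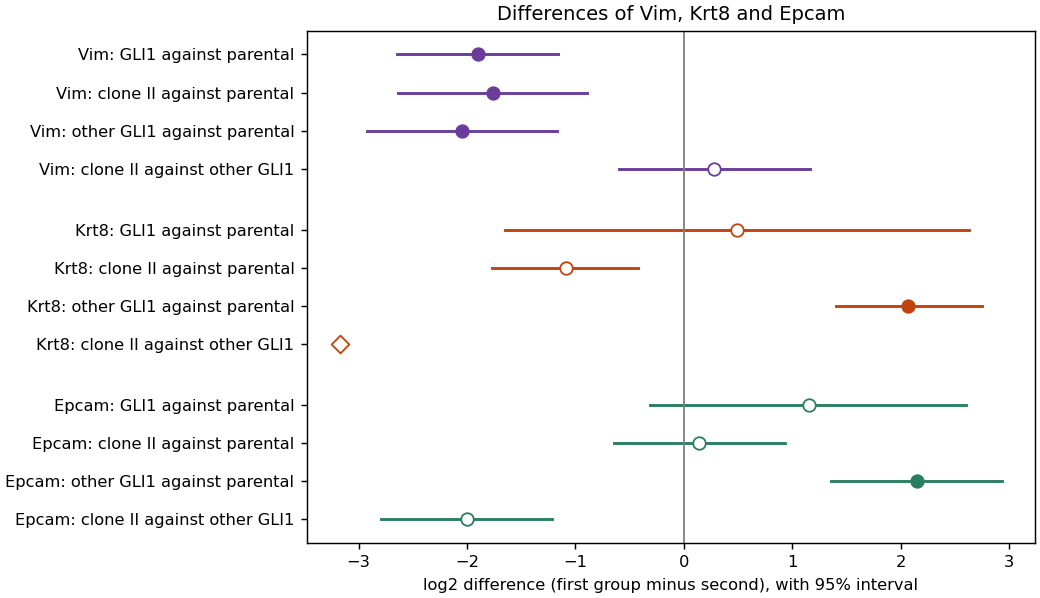
Log2 difference (horizontal axis, first group minus second) of Vim, Krt8 and Epcam in 4 comparisons, with 95% intervals. Filled points have an adjusted p under 0.05, open points do not, and the diamond at -3.17 is a difference with no test: Vim lies near -2 in each comparison with parental cells, and Krt8 and Epcam lie near 2 where the other GLI1 arrays are set against parental cells.

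The 3 remaining keratins were dim. Krt7, the other type II keratin, read 19.8 and 53.2 on the clone II arrays, 187 on the array with no clone named and 216 on clone I, against 256 and 190.0 on the parental arrays. Its clone II arrays lay below the other 4, while the other GLI1 arrays overlapped the parental pair. Krt18, the usual type I partner of Krt8, read 70.9 and 88.6 on the clone II arrays, 76.9 and 155 on the other GLI1 arrays, and 139 and 54.1 on the parental arrays. Its groups overlapped throughout, and it did not follow Krt8 on clone I and the array with no clone named beyond the spread of its parental arrays.

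Krt19, a small type I keratin without a tail domain, read 120 and 7.8 on the clone II arrays, 148 and 149 on the other GLI1 arrays, and 28.0 and 196 on the parental arrays. The parental arrays alone spanned most of that range, and clone II replicate 2 was the lowest of all. Mean log2 signals over the 6 arrays were 6.82 for Krt7, 6.5 for Krt18 and 6.12 for Krt19, all under the limit of 8.33, so no call was made for these 3. Fitted with no limit on signal, clone II minus parental was -2.76 for Krt7 (95% interval -4.72 to -0.80, adjusted p = 0.116 by limma), and it was -1.93 when 32 was added to each signal before the log. The fit with no limit gave -0.13 for Krt18 and -1.28 for Krt19 (adjusted p = 0.969 and 0.721).

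Among the 6 members, 1 (Vim) had GLI1 arrays that did not overlap the parental arrays, all 4 below, where 19.8% of tested genes had them below, 23.4% above and 43.2% did so either way. Clone II lay below the other GLI1 arrays in 4 members, Krt7, Krt8, Krt19 and Epcam, and overlapped them in Krt18 and Vim. The share of tested genes with clone II below the other GLI1 arrays was 19.1%, and 39.6% separated the 2 kinds of array either way. Nothing is read from the 4, since the place of Krt8 was known when it was chosen and 3 of the 6 members are too dim for their order to be read. In these bulk cultures, fewer cells with a transcript and less of it per cell cannot be told apart.

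Across the 6 arrays the log2 signals of Krt8 and Epcam had a Pearson correlation of 0.891, and Epcam ranked 36 of 4252 probe sets by likeness to Krt8. These are descriptions over 6 arrays that share the same 3 groups. Vim correlated with Epcam at -0.633 and with Krt8 at -0.258. Krt8 correlated with Krt7, which is dim, at 0.699 and with its partner Krt18 at 0.375.

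The genes whose pattern was most like that of Krt8 were Ctsz (0.980), Mest (0.948), Crip2 (0.943), Tmem198b (0.942) and Rph3al (0.941). Ctsz, a lysosomal cysteine protease, read 843 and 882 on the clone II arrays, 4508 and 4161 on the other GLI1 arrays, and 1088 and 1696 on the parental arrays. Like Krt8, Ctsz was lowest in clone II and highest on the other GLI1 arrays. Mest, an imprinted gene of the hydrolase fold family, read 2024 and 2701 in clone II, 7363 and 5989 on the other GLI1 arrays, and 3180 and 2947 in parental cells.

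Flrt1, a leucine-rich repeat membrane protein, and Car14, a membrane carbonic anhydrase, were most like Epcam (both 0.991), followed by Trib2 (0.990). Flrt1 read 277 and 160 on the clone II arrays, 5429 and 2237 on the other GLI1 arrays, and 153 and 191 on the parental arrays. Car14 read 1450 and 756 in clone II, 5563 and 4775 on the other GLI1 arrays, and 661 and 894 in parental cells. Both were high on the same arrays as Epcam.

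Ajuba, a LIM domain protein of cell junctions, App, the amyloid precursor protein, and Tmem47 were most like Vim (0.996 each). Ajuba read 2948 and 6804 on the clone II arrays, 3452 and 3093 on the other GLI1 arrays, and 13077 and 17679 on the parental arrays. As for Vim, clone II replicate 2 was the highest GLI1 array. The dim keratins had such neighbours too, Cttnbp2 for Krt7 (0.992), Gstt1 for Krt18 (0.935) and Zfp423 for Krt19 (0.988), but low signals make these orders uncertain.

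**Figure D3:**
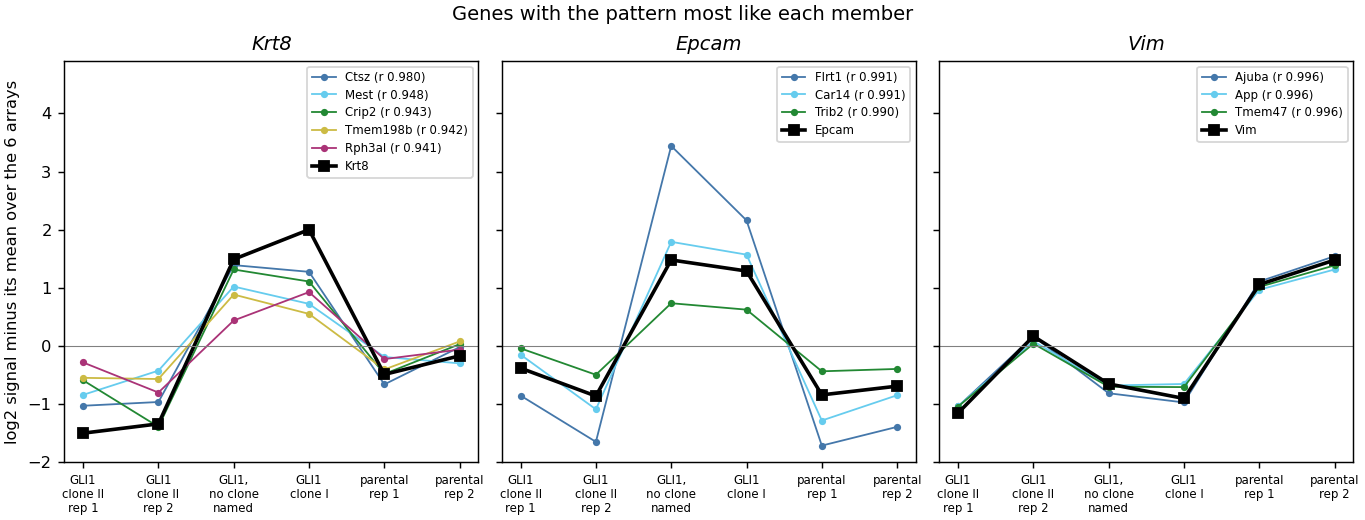
Log2 signal minus its mean over the 6 arrays (vertical axis) for Krt8, Epcam and Vim (black) and the genes of highest Pearson correlation with each (colours, r in the key), on each array from clone II to parental RK3E. Krt8 and Epcam and their neighbours peak on the array with no clone named and clone I, and Vim and its neighbours peak on the parental arrays.

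The other keratins gave few values. Of 3 other simple epithelial keratins listed, Krt20 and Krt23 were on the array and both were under the signal limit. Krt20, a keratin of gut and urinary epithelium, read 233 and 108 on the clone II arrays, 474 and 459 on the other GLI1 arrays, and 151 and 44.2 on the parental arrays. Of 11 keratins of stratified epithelia on the array, 9 were under the limit and 0 of the 2 tested rose or fell by limma. At an unadjusted p under 0.05 by limma 1 was higher, from which nothing is read, as no share of all genes is given there. Krt10 differed by 0.62 (adjusted p = 0.114) and Krt17 by -0.02 (adjusted p = 0.982) on the log2 scale.

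Of 17 other intermediate filament genes on the array 11 were tested, and in GLI1-transformed cells 1 rose and 3 fell, where 7.8% of all tested genes rose and 7.75% fell, with a median log2 difference of -0.66, where the median of all tested genes was 0.07. Prph, peripherin, a type III filament protein of peripheral neurons and a relative of vimentin, read 162 and 228 on the clone II arrays, 193 and 232 on the other GLI1 arrays, and 3277 and 3973 on the parental arrays. Every GLI1 array of Prph lay far below both parental arrays, a 17.9-fold fall (log2 difference -4.16 ± 0.33, adjusted p = 0.000169 by limma). Ina, alpha-internexin, fell by 1.76 (adjusted p = 0.0114) and Nes, nestin, by 1.45 (adjusted p = 0.048), both filament proteins of neural cells. Lmnb1, the nuclear lamin B1, rose by 0.57 (adjusted p = 0.0358), though not by its second probe set (0.76, adjusted p = 0.0593), and its signal was 35975 to 42431 on the GLI1 arrays against 26972 and 26648 on the parental arrays. Leaving out either parental array left 1 fall and 0 rises in the list.

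A further list held genes that link filaments to junctions and the cytoskeleton, or that chaperone them. Of 21 tested, 1 rose and 8 fell, with a median of -0.27, where 7.8% of all tested genes rose and 7.75% fell. Cryab, the small heat shock protein alphaB-crystallin, which chaperones vimentin and desmin, read 461 and 508 on the clone II arrays, 341 and 324 on the other GLI1 arrays, and 14519 and 16860 on the parental arrays. It fell 39.0-fold, with no overlap between groups (log2 difference -5.29 ± 0.28, adjusted p = 1.85e-05 by limma). The cytoskeletal linkers Macf1 and Dst fell by 2.03 and 1.72 (adjusted p = 0.000644 and 0.00103), and Jup, the junction protein plakoglobin, fell by 1.73 (adjusted p = 0.00225). Tchp, trichoplein, which binds keratin filaments, rose by 0.70 (adjusted p = 0.0384), but its second probe set differed by -0.48 (adjusted p = 0.731). The list's other falls, named after their values were seen, were Plec, Dsp, Pkp2 and Trim2, at -0.95 to -2.61.

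Leaving out parental replicate 1 left 4 falls among these linkers, and leaving out parental replicate 2 left 5, with 0 rises in either case. Among the fibroblast markers 4 of 5 tested fell, where 7.75% of all tested genes fell. These were Col1a1, Col1a2, Col3a1 and Ogn, which code for collagens and osteoglycin of the matrix. Their log2 differences were -5.51, -5.73, -7.03 and -4.22 (adjusted p = 0.000919, 1.36e-05, 6.99e-05 and 0.0456 by limma). Leaving out either parental array left 3 of these falls. The 2 other probe sets of Ogn differed by -4.37 and -4.63 and did not pass (adjusted p = 0.067 and 0.131 by limma). Prph and Cryab were low on the same arrays as these fibroblast markers, whose part in the falls of Prph and Cryab was not tested.

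Genes tied to Epcam changed in both directions. Of 15 tested partners, cleaving proteases and inhibitors, 1 rose and 3 fell in GLI1-transformed cells, where 7.8% of all tested genes rose and 7.75% fell. The median of the list was 0.03. Cldn1, the tight junction protein claudin-1, read 2045 and 888 on the clone II arrays, 1193 and 872 on the other GLI1 arrays, and 269 and 341 on the parental arrays, a rise of 1.95 (adjusted p = 0.014). Adam10, a protease that sheds membrane proteins, fell by 1.41 (adjusted p = 0.0119), St14, the serine protease matriptase, by 1.26 (adjusted p = 0.0363) and Ncstn, a subunit of gamma-secretase, by 0.70 (adjusted p = 0.0469). The second probe sets of Adam10 and Ncstn differed by -0.86 and -0.76 and did not pass (adjusted p = 0.209 and 0.11). Of these 4 calls, 0 remained without parental replicate 1, and 1 gene of the list fell without parental replicate 2.

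In clone II 1 of the 15 rose and 5 fell, where 5.32% of all tested genes rose and 6.41% fell. On the other GLI1 arrays 3 rose and 2 fell, where 7.34% rose and 7.46% fell. Both comparisons share the parental arrays. In clone II against the other GLI1 arrays 0 passed by limma, with a median of -0.64 against 0.01 for all genes. At an unadjusted p under 0.05 by limma 1 was higher and 7 were lower. No share of all genes at that threshold is given, so nothing is read from these 2 counts. The next 4 genes were named after their values were seen. Cldn3, a claudin of epithelial tight junctions, read 77.1 and 93.0 on the clone II arrays, 1567 and 555 on the other GLI1 arrays, and 423 and 513 on the parental arrays. Like Krt8, Cldn3 was below parental cells in clone II and above them on the other GLI1 arrays. In clone II it fell by 2.46 (log2 scale, adjusted p = 0.0349 by limma), but its clone II signals were low, under 322. On the other GLI1 arrays the difference of 1.0 did not pass (adjusted p = 0.308 by limma), and clone I at 555 lay close to parental replicate 2 at 513. The likeness to Krt8 is therefore in the order of the groups only.

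Spint1 and Spint2 are membrane inhibitors of matriptase. Spint1 read 1063 and 1091 in clone II, 4786 and 2682 on the other GLI1 arrays, and 3596 and 3966 in parental cells, and fell by 1.81 in clone II (adjusted p = 0.00931). Spint2 read 7565 and 8192 in clone II, 23587 and 17766 on the other GLI1 arrays, and 7206 and 11720 in parental cells, and rose by 1.16 on the other GLI1 arrays (adjusted p = 0.0265). Lef1, a nuclear partner of beta-catenin, rose by 1.32 on the other GLI1 arrays (adjusted p = 0.0257). Direct differences of these 4 between clone II and the remaining GLI1 arrays did not pass, with adjusted p from 0.0999 for Cldn3 to 0.205 for Lef1, and alternatives were not run for these 4.

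Transcription regulators of epithelial and of mesenchymal genes were also counted. Of 12 tested epithelial regulators 3 rose and 1 fell, with a median of 0.31, where 7.8% of all tested genes rose and 7.75% fell. Foxa2, a forkhead factor of endodermal epithelia, read 11836 and 11069 on the clone II arrays, 16668 and 11705 on the other GLI1 arrays, and 2228 and 2260 on the parental arrays. It rose 5.63-fold, with every GLI1 array above both parental arrays (log2 difference 2.49 ± 0.21, adjusted p = 0.000213 by limma). Klf4, a zinc finger factor of epithelial differentiation, rose by 1.80 (adjusted p = 0.0031) and Ets2 by 1.5 (adjusted p = 0.00536). Grhl1, a grainyhead factor of epithelial junction genes, fell by 1.46 (adjusted p = 0.026). Leaving out either parental array left 2 rises and 0 falls in the list.

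Snai1, the Snail repressor that binds CACCTG boxes, was the 1 gene of 7 tested mesenchymal regulators that rose, and 0 fell. The median of the list was -0.31, and 7.8% of all tested genes rose and 7.75% fell. At an unadjusted p under 0.05 by limma 1 was higher and 2 were lower. Nothing is read from these counts, as no share of all genes is given at that threshold. Snai1 read 3608 and 3326 on the clone II arrays, 4184 and 3420 on the other GLI1 arrays, and 476 and 589 on the parental arrays, a 6.84-fold rise (log2 difference 2.77 ± 0.22, adjusted p = 0.000181). Zeb1 and Zeb2, also E-box repressors, were named after their values were seen. They fell by 1.10 and 1.11 on the other GLI1 arrays (adjusted p = 0.0484 and 0.0292 by limma), where 7.46% of all tested genes fell. In clone II they differed by -0.32 and -0.33 and did not pass (adjusted p = 0.566 and 0.482). Over all GLI1 arrays the 3 other probe sets of Zeb2 differed by -0.92, -0.83 and -0.40 and did not pass. Alternatives were not run for these 2 falls.

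Enzymes that phosphorylate vimentin or remove its phosphates gave few calls. Of 16 tested, 1 rose and 2 fell, with a median of 0.11, where 7.8% of all tested genes rose and 7.75% fell. Aurkb, a mitotic kinase, read 13899 and 15621 on the clone II arrays, 10560 and 17497 on the other GLI1 arrays, and 5237 and 6218 on the parental arrays, a rise of 1.31 (adjusted p = 0.00648 by limma). Camk2d, a calcium-dependent kinase, fell by 1.17 (adjusted p = 0.00646) and Pak1, a kinase downstream of small GTPases, by 0.66 (adjusted p = 0.0319). Their second probe sets differed by -1.09 and -0.49 and did not pass (adjusted p = 0.0604 and 0.319). Without parental replicate 1 there were 0 calls in this list, and without parental replicate 2 there was 1 rise.

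**Figure D4:**
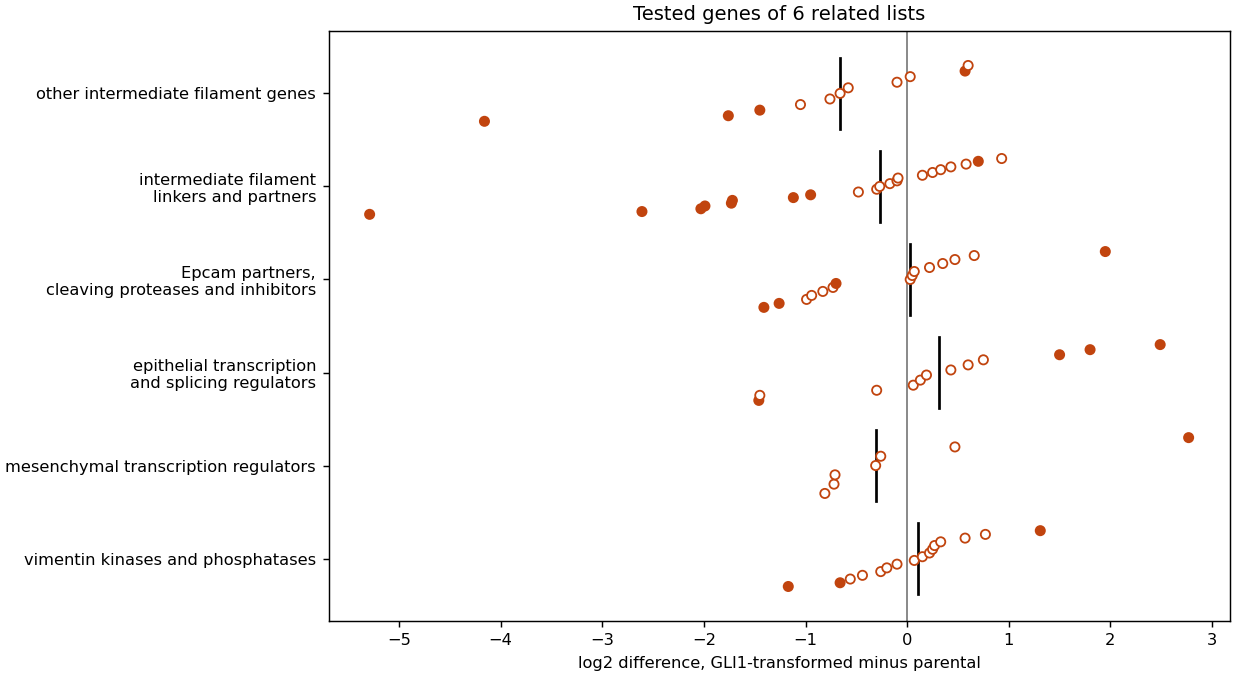
Log2 difference, GLI1-transformed minus parental (horizontal axis), of every tested gene in 6 lists related to the members. Filled points have an adjusted p under 0.05, open points do not, and the black bar is the list's median, which runs from -0.66 for other intermediate filament genes to 0.31 for epithelial transcription and splicing regulators.

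Few of the further kidney epithelium markers passed the signal limit, which does not call the rest absent. Of 11 further kidney epithelium markers 9 were under the signal limit, among them Cdh1, Cdh16, Pax2 and Pax8. Their summed signal over the list was 2490 to 3500 on the GLI1 arrays and 3110 and 3250 on the parental arrays. Cdh1, E-cadherin, read 20.8 and 127 on the clone II arrays, 601 and 200.2 on the other GLI1 arrays, and 83.8 and 170 on the parental arrays. Of the 2 tested, Lrp2, the tubule receptor megalin, fell by 1.09 (adjusted p = 0.0437 by limma), a call lost when either parental array was left out.

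Markers of other cell types were followed on the same arrays, where 7.8% of all tested genes rose and 7.75% fell in GLI1-transformed cells. Immune and endothelial markers summed to 734 to 987 and 537 to 874 on the GLI1 arrays, against 851 to 903 and 710 to 813 on the parental arrays, and 0 of the 1 tested immune marker passed (0 at an unadjusted p under 0.05 by limma). All 5 endothelial markers on the array were under the signal limit and were not tested. Muscle markers summed to 1240 to 2030 on the GLI1 arrays against 2100 to 2660 on the parental arrays, and 0 of 3 tested passed, also at an unadjusted p under 0.05. Neural markers summed to 3830 to 3860 in clone II and 5310 to 7050 on the other GLI1 arrays, against 7440 to 7660 in parental cells, with falls of Map2 (-1.60, adjusted p = 0.00717) and Nes among 5 tested, both lost when either parental array was left out. Rbfox3, a neuronal splicing factor of the same list, read 930 and 34.2 on the clone II arrays, 3307 and 1355 on the other GLI1 arrays, and 160 and 72.1 on the parental arrays. Its difference in GLI1-transformed cells was 2.52 (adjusted p = 0.31), that of its second probe set 4.21 (adjusted p = 0.0561), and Syp, a synaptic vesicle protein, differed by 0.46 (adjusted p = 0.493). Ogn, a fibroblast marker, read 3525 and 3160 on the clone II arrays and 210.3 and 213 on the other GLI1 arrays, against 16736 and 14574 on the parental arrays. It was 3.98 higher in clone II than on the other GLI1 arrays on the log2 scale (SE 0.24, adjusted p = 0.00177), the reverse order of Krt8 and Epcam.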

How the data were processed

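Biotin-labelled cRNA from 4 GLI1-transformed and 2 parental RK3E cultures was hybridised to 1-colour Affymetrix rat arrays, per the labels. The deposited intensity values, 1 per probe set and array on a linear scale, were made by the authors with MAS5, per the submitters' processing notes, and its version and the genome build are not given in the sources used here. MAS5 combines a set's probes and scales each array to a common mean, so a level is relative to its array. Array depth does not apply, and the number of arrays limits the precision.

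Log2 of each signal was taken, with a floor of 1. After 57 control probe sets of 31099 were left out, the 18625 above the 40th percentile of mean log2 signal were tested. Groups were compared with limma 3.58.1 in R 4.3.3 (lmFit, eBayes with intensity trend, two-sided, Benjamini-Hochberg over all tested probe sets, threshold 0.05). GLI1 against parental used 2 levels (4 residual degrees of freedom). The other contrasts used 3 levels, clone II, other GLI1 and parental (3 residual degrees of freedom). The script was tested on simulated data. The labels call the arrays biological replicates but do not say how cultures were kept apart, so the spread behind the p-values is that of these arrays and may be technical. No 2 arrays shared more than 16 identical values.

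GEO's platform annotation gave 1 symbol to 20826 probe sets, several to 436 and none to 9780, and 20758 were matched by gene ID to a RefSeq gene list of GRCr8, used for names. Promoters came from RefSeq on the same assembly. Where a gene had several probe sets, that of highest mean was used, which left 10240 genes. The text names all members, from each list up to 4 genes of smallest adjusted p in each direction (2 between clones), and the 3 (Krt8: 5) genes of highest correlation among tested probe sets with a log2 SD of at least 0.5. Members, lists and rules were chosen with earlier results of these data known. Alternatives covered array scaling, an offset, the signal filter, the variance trend, each array left out, arrays of high GAPDH ratio, clone II averaged and a replicate block.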

Additional observations from a re-analysis of the deposited data

Results flagged for a closer look

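Krt19 on the 4 GLI1 arrays held 1 array far from the others. Clone II replicate 2 read 7.8, against 120, 148 and 149 on the other 3, and its gap made up 0.924 of the range on the log2 scale, past Dixon's 95% limit for 4 arrays. Chance flags about 1 in 20 such groups, and all Krt19 signals were under the limit for testing. The ratio was computed for each of the 6 members, so a flag somewhere among them is more likely than that. Dixon's limit also takes the 4 arrays as a single population, while they come from more than 1 clone.

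Krt8 lay below both parental arrays in clone II and above both on the other GLI1 arrays. Clone II minus the other GLI1 arrays was -3.17 on the log2 scale, and it was not tested because Krt8 was chosen with that difference known.

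Ogn was higher in clone II than on the other GLI1 arrays by 3.98 on the log2 scale (adjusted p = 0.00177 by limma), and lower than in parental cells in both. Its other probe sets gave 3.81 (adjusted p = 0.238) and 5.40 (adjusted p = 0.169), which did not pass. On the other GLI1 arrays the mean log2 signal of Ogn, 7.73, was under the limit for testing.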

How the results depend on the processing

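With 2 arrays a group, calls rested on single arrays. In GLI1-transformed against parental cells Vim was -2.17 to -1.70 with 1 array left out (not called with either parental array left out) and -1.94, not called, without clone II replicate 1 and parental replicate 1 together. Krt8 there ran from -0.12 (without clone I) to 1.04. Vim in clone II was not called without the intensity trend (-1.76), without the 2 arrays together (-1.31), or when clone II replicate 1 or either parental array was dropped (-2.42 to -1.10 with 1 array left out). Krt8 in clone II ran from -1.25 to -0.93 with 1 array left out. At -1.09 it passed by limma with the filter at the 60th percentile (adjusted p = 0.0496) and with a replicate block (adjusted p = 0.0305). It also passed without the array with no clone named, and missed the threshold in the other 11 alternatives. Among these it was -1.18 without the 2 arrays together. Epcam in clone II ran from -0.10 to 0.38, and was -0.10 without clone II replicate 1 and -0.17 without the 2 arrays together. On the other GLI1 arrays Vim ran from -2.25 to -1.84 (not called when clone I or either parental array was dropped), and Epcam ran from 2.05 to 2.24 and was not called without parental replicate 1 (2.07) or without the 2 arrays together (2.07). Between clones Krt8 ran from -3.42 to -2.91, and Vim from -0.38 to 0.94, with the sign turned without clone II replicate 2. The filter at the 60th percentile left Epcam untested.

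Called genes numbered 1593 in GLI1-transformed cells, 316 to 1955 with 1 array left out and 195 without the 2 arrays together. In clone II they numbered 1201, with 260 to 1398, 149 and 707 without the trend, and on the other GLI1 arrays 1516, with 404 to 1369, 387 and 974. Between clones they numbered 18, and 1 to 72 with 1 array left out, 29 with median centring, 10 with no filter, 3 with the 60th percentile, 4 without the trend, 6 without the 2 arrays together and 71 with a replicate block. Arrays were not paired by number in the main fits, since the labels name no shared batch. Deviations of same-numbered arrays correlated at 0.321 for clone II and parental, 0.104 for other GLI1 and clone II, and 0.068 for other GLI1 and parental. The pair at 0.321 includes the 2 arrays of high GAPDH ratio, so an effect shared by same-numbered arrays is not excluded. Of 27 named list genes 8 passed in every alternative that tested them.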
